A study of Arabidopsis thaliana with 9 samples.

Results

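The root hair genes are 10 loci of the flowering plant Arabidopsis thaliana that act in the outgrowth of hairs from the root epidermis. They were chosen by gene identifier and not by any measured value: RHD6 (AT1G66470), RSL4 (AT1G27740), EXPA7 (AT1G12560), EXPA18 (AT1G62980), COBL9 (AT5G49270), LRX1 (AT1G12040), LRX2 (AT1G62440), RHD2 (AT5G51060), PRP1 (AT1G54970) and PRP3 (AT3G62680). All 10 were among the 33323 identifiers in the count files and among the 20672 genes that passed the filter on low counts. Transcript 3' ends were sequenced from total RNA of whole seedlings, 2 weeks old and grown on MS medium, with no stress treatment named. The 3 genotypes were the wild-type accession Col-0 (WT), the mutant atrzf1 and the line pca31. In atrzf1 the gene AtRZF1, encoding an E3 ubiquitin ligase with a RING domain, is mutated. The submitters describe pca31 as suppressing atrzf1, and the series' design text ties it to a gene it names RGL1. AtRZF1 transcripts were low in pca31 as well as in atrzf1. There were 3 libraries per genotype, and the titles number them 1 to 3. The labels do not say how many plants went into a library, whether roots and shoots were taken in equal parts, what a number marks, or whether libraries of a genotype came from separate cultures. P-values thus reflect the spread among these samples alone, and that spread may be technical.

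A root hair is a tubular extension of a single epidermal cell that takes up water and ions. Position in the epidermis sets which cells form hairs, bHLH transcription factors of the RHD6 and RSL group start and sustain the outgrowth, and these factors drive genes that remodel the wall of the growing tip. Wall loosening by expansins, structural proteins rich in hydroxyproline and reactive oxygen made by an NADPH oxidase are all needed for normal tip growth.

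A regulatory sequence named the root hair element, bound by RSL-type factors, has been described upstream of genes of this kind, with EXPA7 among the genes it was defined on. The element was searched for on both strands in the 500 bases before each annotated gene start, and it is shown here because it links 6 of the 10 genes by sequence. Its letters include ambiguous positions, so it is given by name. Each line reads 5' to 3' on the plus strand of the RefSeq assembly TAIR10.1, which is the coding strand of all 6 genes, with the element in capitals.
EXPA7, chr1:4276407-4276463: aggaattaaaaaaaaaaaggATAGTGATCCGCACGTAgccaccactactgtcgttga
EXPA18, chr1:23331503-23331558: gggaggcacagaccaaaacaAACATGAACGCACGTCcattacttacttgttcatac
LRX1, chr1:4069879-4069934: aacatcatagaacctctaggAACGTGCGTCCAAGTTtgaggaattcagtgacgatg
LRX2, chr1:23112656-23112712: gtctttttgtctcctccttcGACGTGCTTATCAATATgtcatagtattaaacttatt
PRP1, chr1:20504752-20504808: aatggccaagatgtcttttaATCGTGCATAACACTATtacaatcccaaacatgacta
PRP3, chr3:23182535-23182591: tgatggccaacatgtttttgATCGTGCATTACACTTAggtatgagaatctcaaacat

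The match of EXPA7 lay 62 to 78 bases before the gene start and that of EXPA18 lay 25 to 40 bases before it, both in the orientation of the gene. In LRX1 the match lay 78 to 93 bases upstream, in PRP1 113 to 129, in PRP3 151 to 167 and in LRX2 241 to 257, and in these 4 genes it was read from the opposite strand. The annotated start of LRX2 is its start codon, so its distance is counted from there. No match was found in this window for RHD6, RSL4, COBL9 or RHD2. Of 27443 promoters of the same length, 400 (1.46%) held a match. Among genes of the same pathway, 7 of 16 other hair wall and surface genes and 1 of 10 epidermal patterning genes held one. Of 16 root markers that are not hair genes, 0 held one. Whether genes of the hair lists were first named through this element is not given in the sources used here. Their shares are thus not independent support. The shorter motif GCACGT, searched on both strands, was in 6 promoters too, and in 5.8% of all, but not in the same 6: it was in EXPA7, EXPA18, COBL9, LRX1, LRX2 and RHD2 and not in PRP1 or PRP3. It can overlap the element. The E-box CANNTG was in 8 of 10, beside 80.09% of all promoters, and the G-box CACGTG in 0 of 10, beside 9.35%. A match is a description of sequence and not a shown binding site.

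Totals per library ran from 22478803 to 33073605 counts, so a count of 0 allows up to 3 counts, or 0.0867 to 0.131 CPM (counts scaled by TMM library size to a common total of 1000000). Because reads come from the 3' end, CPM was not divided by gene length. AtRZF1 itself stood at 24.0 to 31 CPM in the 3 WT libraries and at 1.16 to 4.60 CPM in the 6 libraries of atrzf1 and pca31, with no overlap. The number 3 libraries stood apart from numbers 1 and 2 in all genotypes: the summed level of 16 root markers other than hair genes was 1623 to 2401 CPM there and 27.1 to 165 CPM elsewhere. All 9 libraries are labelled as seedlings. In the 6 of numbers 1 and 2 the root markers BGLU21, PHT1;1 and CASP2 had 4, 5 and 3 counts in all and CASP5 had 0. Other listed root markers were counted there, PYK10 with 10833, PHO1 with 740, CASP1 with 689 and HKT1 with 253 counts. IRT1 had 20 counts there and 13 in number 3, or means of 0.123 and 0.154 CPM. NRT2.1 had 32 counts there and 1 in number 3, or means of 0.213 and 0.0131 CPM. The summed level of 6 leaf mesophyll markers was 9481 to 11882 CPM in number 3 and 16239 to 32613 CPM elsewhere. The labels do not say whether roots and shoots were taken in equal parts. In such samples, fewer cells of a type and less RNA per cell cannot be told apart. What sets number 3 apart was not tested.

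Root hair transcripts were found almost wholly in the number 3 libraries. Those 3 libraries held 4309 counts of the 10 genes and the 6 others together held 197, so that 95.6% of the hair gene counts, but 27.6% of the counts of all genes, came from number 3. The summed level of the 10 genes was 56.1 CPM in WT, 36.7 CPM for atrzf1 and 62.2 CPM for pca31 in number 3. In the 6 other libraries it lay between 0.178 and 2.15 CPM. Of the 10 genes, 5 (RHD6, RSL4, EXPA7, LRX1 and PRP1) had 0 counts in all 6 libraries of numbers 1 and 2 and a count in all 3 of number 3, a pattern that 0.595% of the tested genes had.

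**Figure D1:**
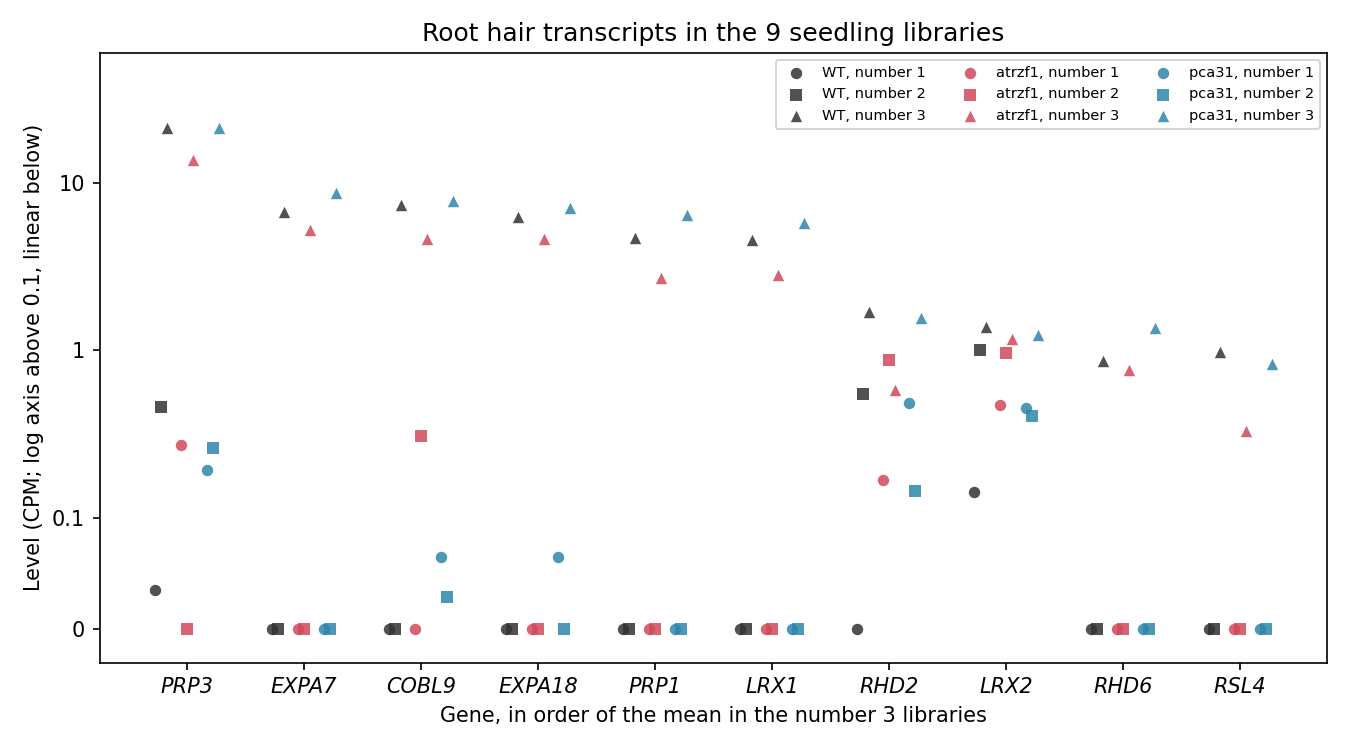
Level of each of the 10 root hair genes (y axis, CPM, log scale above 0.1 and linear below) in the 9 libraries, with genotype by colour and library number by symbol. The triangles of number 3 lie above all other symbols for 9 genes, and RHD2 in atrzf1 is the exception.

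The transcription factors act first in the pathway and had the lowest mean levels. RHD6, at chr1:24795214-24797015, encodes the bHLH factor that starts hair outgrowth. Its level in number 3 was 0.865 CPM in WT, 0.765 CPM for atrzf1 and 1.36 CPM for pca31, from 22, 21 and 41 counts. RSL4, at chr1:9654475-9656089, encodes the related bHLH factor that acts after RHD6 and promotes hair elongation. Its level was 0.983, 0.328 and 0.830 CPM in the same order, from 25, 9 and 25 counts. Both were at 0 in the 6 other libraries, so number 3 was at least 9.23-fold higher for RHD6 and at least 6.60-fold higher for RSL4, taking 3 counts per library as the floor.

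The wall-loosening genes followed. EXPA7, at chr1:4276505-4277969, and EXPA18, at chr1:23331563-23333246, encode alpha-expansins, proteins that loosen the wall without cutting its polymers. EXPA7 stood at 6.76 CPM in WT, 5.25 CPM for atrzf1 and 8.77 CPM for pca31 in number 3, and at 0 elsewhere, at least 64.1-fold lower. EXPA18 stood at 6.25, 4.66 and 7.07 CPM, and outside number 3 it had only 2 counts, in number 1 of pca31. The ratio for EXPA18 was 512 with a 95% counting interval of 141 to 4241, and without that library EXPA18 was at least 54.3-fold higher in number 3. EXPA18 overlaps AT1G62978 on the other strand, which had 0 counts in all 9 libraries. EXPA7 overlaps AT1G12570 on the other strand, and the strand setting of the counting is not given in the sources used here. That neighbour ran from 0.984 to 12 CPM and had its 3 lowest values in number 3, opposite to EXPA7.

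COBL9, at chr5:19971884-19974530 on the minus strand, encodes a COBRA-like protein anchored to the outer face of the plasma membrane and required for tip growth, and is also named SHV2. It reached 7.43 CPM in WT, 4.63 CPM for atrzf1 and 7.77 CPM for pca31 in number 3. Outside number 3 it had counts in 3 of 6 libraries, of which the highest was 0.307 CPM in number 2 of atrzf1. The mean in number 3 was 99.2-fold that of the 6 others. Of the 10 counts outside number 3, 7 came from number 2 of atrzf1, and without that library the ratio was 325 with a 95% counting interval of 111 to 1582.

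LRX1 (chr1:4069992-4072681) and LRX2 (chr1:23112933-23115293) encode leucine-rich repeat extensins, wall proteins that act together in hair cells. They shared the family but not the pattern. LRX1 was at 4.60 CPM in WT, 2.80 CPM for atrzf1 and 5.81 CPM for pca31 in number 3, and at 0 in the 6 others, at least 40.8-fold lower. LRX2 was at 1.38, 1.17 and 1.23 CPM in number 3. Outside number 3, LRX2 was at 0.142 and 1.01 CPM in numbers 1 and 2 of WT, 0.473 and 0.964 CPM in those of atrzf1, and 0.451 and 0.404 CPM in those of pca31. LRX2 was thus the only one of the 10 genes with counts in all 9 libraries, and its mean in number 3 was 2.19-fold that of the others.

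RHD2, at chr5:20757199-20762461 on the minus strand, encodes the NADPH oxidase that makes reactive oxygen at the hair tip. In number 3 it was at 1.69 CPM in WT, 0.583 CPM for atrzf1 and 1.56 CPM for pca31. In numbers 1 and 2 it was at 0 and 0.546 CPM in WT, 0.169 and 0.876 CPM in atrzf1, and 0.483 and 0.144 CPM in pca31. For atrzf1 the order of the libraries was therefore turned, with number 2 above number 3.

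PRP1 (chr1:20504901-20506504) and PRP3 (chr3:23182722-23184042) encode proline-rich structural proteins of the wall. PRP3 had the highest level of the 10 genes, at 21.5 CPM in WT, 13.8 CPM for atrzf1 and 21.4 CPM for pca31 in number 3, and supplied 34.4% to 38.2% of the hair gene counts in those libraries. Outside number 3 it was counted in 5 of 6 libraries, at up to 0.462 CPM, and the mean in number 3 was 92.9-fold that of the others. PRP1 was at 4.72, 2.70 and 6.41 CPM in number 3 and at 0 elsewhere, at least 42.6-fold lower. The last 500 transcript bases of PRP3 hold a stretch of 438 bases that is 80.4% identical to PRP1, and those of LRX2 hold 321 bases that are 77.9% identical to LRX1. EXPA7 shares 215 bases at 81.9% identity with EXPA18. How the authors treated reads that fit both genes of such a pair is not given in the sources used here, so a small exchange of reads within these pairs cannot be told apart from the genes' own counts.

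Over the 3 number 3 libraries the order of the mean levels was PRP3 (18.9 ± 4.41 CPM, SD, n = 3), EXPA7 (6.92 ± 1.77), COBL9 (6.61 ± 1.73), EXPA18 (6.0 ± 1.23), PRP1 (4.61 ± 1.86), LRX1 (4.41 ± 1.51), RHD2 (1.28 ± 0.605), LRX2 (1.26 ± 0.108), RHD6 (0.997 ± 0.320) and RSL4 (0.714 ± 0.343). The n here counts 1 library of each genotype. Of neighbours in this order, the ranges were separate for PRP3 against EXPA7 and for LRX1 against RHD2, and they overlapped for the other 7 pairs. The genes thus fell into PRP3, a middle group of 5 wall and surface genes, and a low group of RHD2, LRX2 and both transcription factors.

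The difference by library number was tested with edgeR's quasi-likelihood test over all 9 libraries with genotype as a covariate and Benjamini-Hochberg adjustment over all 20672 genes. RHD6, RSL4, EXPA7, EXPA18, COBL9, LRX1, PRP1 and PRP3 were higher in number 3 at an adjusted p under 0.05, which is 8 of 10 genes, and 23.6% of all tested genes were called higher. These 8 passed the filter on low counts through the number 3 libraries alone, so they had to differ, and their count supports nothing beyond the values given above. Adjusted p was 3.93e-07 for PRP3, with a log2 difference of 6.51 ± 0.42 (SE), and 8.85e-06 for COBL9, with 6.99 ± 0.67. It was 3.04e-06 for EXPA18, 6.54e-06 for EXPA7, 2.39e-05 for PRP1, 2.73e-05 for LRX1, 0.00131 for RHD6 and 0.00291 for RSL4 in the same edgeR fit. DESeq2 gave adjusted p of 0.0629 for RHD6 and 0.0877 for RSL4, so the calls of both transcription factors depended on the tool.

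LRX2 and RHD2 also pass the filter without number 3, and neither was called. The log2 difference was 1.27 ± 0.56 for LRX2 (edgeR adjusted p = 0.0843) and 1.93 ± 0.86 for RHD2 (adjusted p = 0.0854). Scaling by library totals, which moved the median log2 difference of all genes from 0.03 to 0.39, brought LRX2 to an adjusted p of 0.0262 and RHD2 to 0.0390. DESeq2 called RHD2 (adjusted p = 0.0488), and so did edgeR without number 1 of pca31 (adjusted p = 0.0338). All 3 number 3 libraries lay above the other 6 for 9 of 10 genes, beside 18.9% of all tested genes. For the 8 genes that passed the filter through number 3 alone, this order was largely set by the filter. Of the other 2 it held for LRX2 and not for RHD2, so the count adds no support. Within a genotype, number 3 lay above numbers 1 and 2 for 10 genes in WT, 9 in atrzf1 and 10 in pca31. The share of all tested genes with this order within a genotype is not given here. For the same 8 genes the filter largely set this order too, so these counts also add no support. Between number 1 and number 2, 0 of 10 genes were called by edgeR, 0 had an unadjusted p under 0.05, and DESeq2 called 0. This says nothing of RHD6, RSL4, EXPA7, LRX1 and PRP1, which had 0 counts in all 6 of these libraries, nor of EXPA18, which had 2, so their count cannot be read against the 22.0% of all tested genes that were called.

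Genotype was compared next, since the series' design text poses the question of whether AtRZF1 and RGL1, the gene it ties to pca31, act on target genes in opposite ways. Against WT, atrzf1 had 0 of 10 hair genes called by edgeR and 0 with an unadjusted p under 0.05, beside 0% of all tested genes called. Between pca31 and atrzf1 there were 0 of 10 called and 0 at an unadjusted p under 0.05, beside 0.00484% of all genes, and between pca31 and WT the same, beside 0.00484%. DESeq2 called 0 of 10 in each. The median log2 difference over the 10 genes was -0.52 for atrzf1 against WT, 0.70 for pca31 against atrzf1 and 0.14 for pca31 against WT, while the median over all tested genes was within 0.02 of 0. The SE of a single gene in these contrasts was wide, 2.74 for EXPA7 and 0.87 for LRX2 in atrzf1 against WT, and in each genotype number 3 lay far from the other libraries. Leaving out 1 number 3 library moved the median for atrzf1 against WT to 6.80 without that of WT and to -6.14 without that of atrzf1.

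Libraries of the same number deviated together, so the same contrasts were also fitted with the number as a block. The blocked fit called 0 of 10 hair genes in atrzf1 against WT, beside 0.0339% of all genes, 0 of 10 in pca31 against atrzf1, beside 0.00484%, and 0 of 10 in pca31 against WT, beside 0.0435%. The lowest edgeR adjusted p of a hair gene in the blocked fits was 0.890. The blocked medians were -0.38, 0.74 and 0.34 in the same order. These misses do not show that the genotypes are alike in hair transcripts. Without the number 3 libraries only LRX2 and RHD2 pass the filter, and neither was called in that fit.

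Number 3 alone holds enough hair gene counts to set the genotypes side by side, but with 1 library per genotype there is no replicate check, and the 95% intervals below cover counting error only. In these libraries atrzf1 had the lowest level of the 3 genotypes for 10 of 10 hair genes, beside 32.2% of all tested genes and 38.0% of the 4871 genes called higher in number 3. The ratio of atrzf1 to WT ran from 0.334 to 0.885 with a median of 0.633, and its interval excluded 1 for 8 genes. RSL4 had the lowest ratio, 0.334 (0.137 to 0.739), followed by RHD2 at 0.345 (0.181 to 0.625). PRP3, with the most counts, had a ratio of 0.643 (0.563 to 0.735), and the genes whose interval held 1 were RHD6 (0.463 to 1.69) and LRX2 (0.508 to 1.41).

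The level in pca31 was above that in atrzf1 for all 10 genes, with ratios of 1.05 to 2.68, a median of 1.73 and an interval that excluded 1 for 9. Since both ratios share the atrzf1 library, they are not independent of each other. PRP1 had a ratio of 2.38 (1.81 to 3.15), LRX1 2.07 (1.58 to 2.75) and COBL9 1.68 (1.35 to 2.1). Between pca31 and WT the ratio ran from 0.845 to 1.57 with a median of 1.09, and the interval excluded 1 for EXPA7 (1.07 to 1.58) and PRP1 (1.08 to 1.72) only. The level was highest in pca31 for 6 of 10 genes, beside 33.8% of all tested genes and 34.1% of those called higher in number 3.

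**Figure D2:**
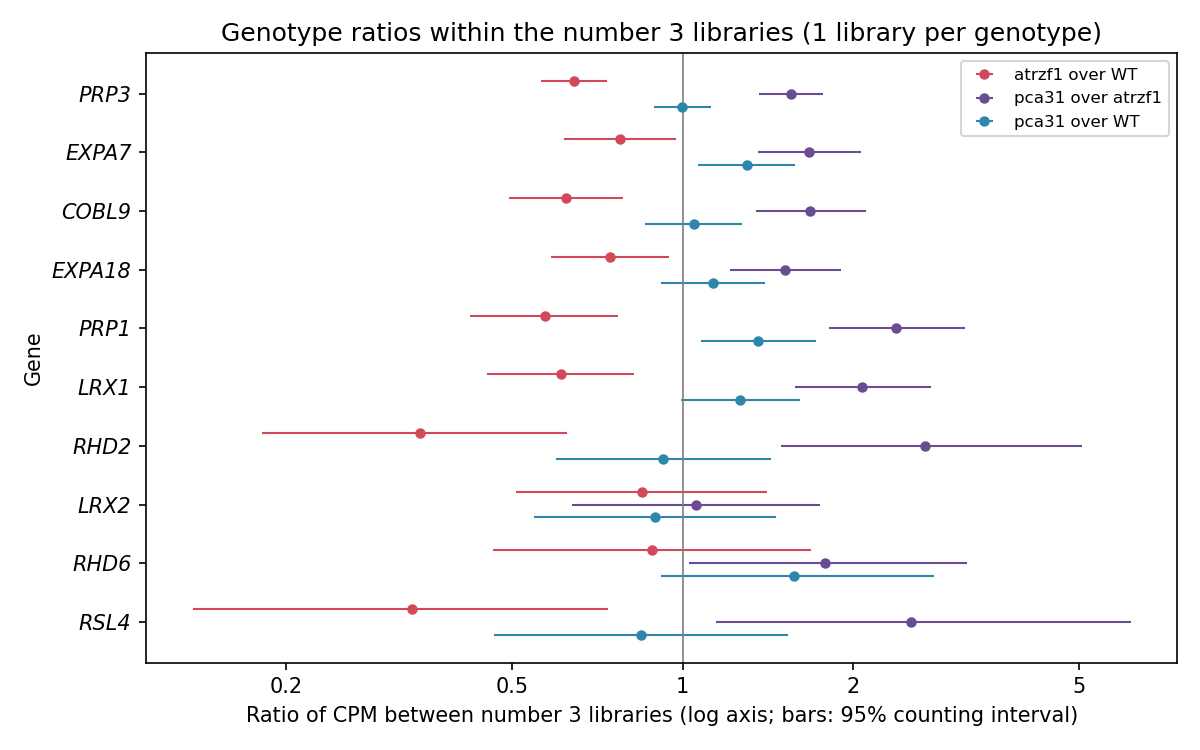
Ratio of CPM between the number 3 libraries (x axis, log scale) for each root hair gene, with 95% counting intervals and 1 library per genotype. All 10 ratios of atrzf1 to WT lie below 1 and all 10 of pca31 to atrzf1 lie above it, while those of pca31 to WT lie on both sides.

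Other root transcripts moved in the same library. Of the 13 tested root markers outside the hair list, 12 were also lowest in atrzf1 in number 3, and the summed root marker level was 2401 CPM in WT, 1623 CPM for atrzf1 and 2138 CPM for pca31. The log2 ratio of the summed hair genes to the summed root markers was -5.42 in WT, -5.47 in atrzf1 and -5.10 in pca31. The marker sum is mostly PYK10, a beta-glucosidase of root endoplasmic reticulum bodies. The ratio was thus lowest in atrzf1, by a small step below WT. Without PYK10, an alternative chosen after seeing the data, the log2 ratio was -3.30, -2.94 and -2.97, and the lowest was that of WT. The part of root RNA content in the lower hair gene levels of the atrzf1 library was not tested.

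**Figure D3:**
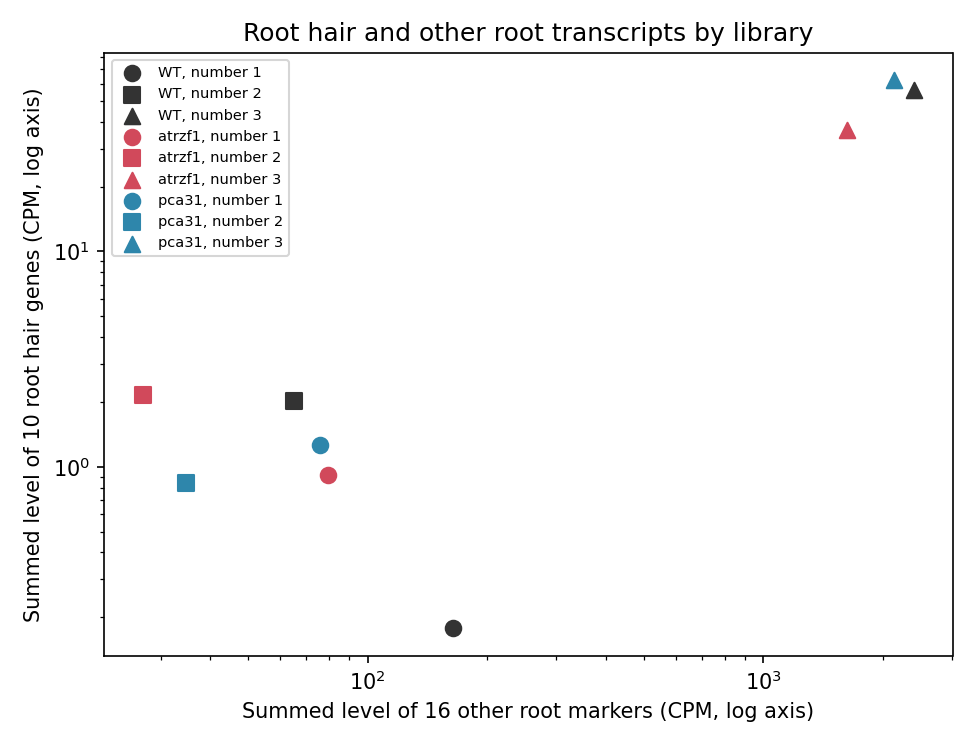
Summed level of the 10 root hair genes (y axis, CPM, log scale) against that of 16 other root markers (x axis, CPM, log scale), 1 point per library. The number 3 libraries sit at 36.7 to 62.2 CPM of hair genes and 1623 to 2401 CPM of root markers, apart from the other 6 on both axes.

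Across the 9 libraries the log2 CPM of a hair gene followed the mean of the other 9 with Pearson r of 0.947 to 0.981 for 8 genes, and with r = 0.738 for LRX2 and r = 0.734 for RHD2. After the mean of each number was subtracted, r ran from 0.128 for PRP3 to 0.857 for LRX1. The values over all libraries describe 9 points that form 2 clusters, number 3 and the rest. Libraries of 1 number deviate together over all genes, so the points are not independent. The genes outside the list whose pattern was most like the mean of the hair genes were AT3G49960 and AT4G22610 (both r = 0.992), LAC7, GSTU25, WRI4, AT1G22690, FER1 and MIZ1 (r = 0.988 to 0.989), among 15276 genes that reached 5 CPM in a library. In number 3, AT3G49960 ran at 17.0 to 25.9 CPM, and elsewhere it ran at 0.107 to 0.923 CPM. In all, 280 genes (1.83%) had r above 0.95. After the mean of each number was subtracted, the most alike genes were BIP1 (r = 0.972), NRAMP1 (r = 0.968), AT3G12685, AT3G52460, JMJD5, AT1G56610, AT1G79570 and AT5G04860, which ranged down to r = 0.926. RHD6, RSL4, EXPA7, LRX1 and PRP1 had no counts in numbers 1 and 2. After this step they varied only among the number 3 libraries, so these r values rest on few points. The most alike genes were the highest of 15276, and no r was tested.

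The rest of the hair pathway was described by the same contrast of number 3 against numbers 1 and 2, in which all tested genes had a median log2 difference of 0.03. Over all tested genes 23.6% were called higher and 22.1% lower, and the list counts below stand beside these shares. Of 16 other genes of the hair wall and surface, 13 were tested, 10 rose and 0 fell. Of the 13, 8 passed the filter on low counts through number 3 alone and had to differ. Among the other 5, EXT3, an extensin, rose by 3.66 ± 0.21 and the peroxidase gene PRX73 by 3.80 ± 0.36. Root markers outside the hair list also rose, 13 of 13 tested, of which 8 passed through number 3 alone. RHS13 was at 0 outside number 3 and at least 294-fold higher in it (edgeR adjusted p = 1.46e-07). EXT12, an extensin, had a mean of 28.7 CPM in number 3 and 0.0266 CPM elsewhere, from 4 counts, of which 1 was left without number 2 of WT. PRX60 and PRX44 are class III peroxidases, of which PRX60 was at least 35.6-fold and PRX44 126-fold higher. RHS8 had 2 counts outside number 3 and a ratio of 234 (63.9 to 1940), and without number 1 of pca31, which held both counts, it was at least 24.4-fold higher. Genes of this list that were not called were the cellulose synthase-like CSLD3 (log2 difference 0.25 ± 0.18), SHV3 (0.15 ± 0.14) and RHS14 (1.74 ± 0.86).

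Polarity, signalling and trafficking genes, many of which act in other cells too, differed less. Of 15 listed, 11 were tested and passed the filter without number 3 too, 5 rose (23.6% of all genes did) and 0 fell, with a median of 0.52. The phosphatidylinositol transfer protein gene COW1 rose by 1.42 ± 0.31 on the log2 scale and the GTPase gene RHD3 by 1.21 ± 0.13. Of 7 other bHLH factors of the RSL and LRL groups, 4 were tested and 2 rose, LRL3 having passed the filter through number 3 alone. LRL3 was at 0 outside number 3 and at 2.63, 2.22 and 5.51 CPM in number 3 of WT, atrzf1 and pca31, at least 32.0-fold higher, and LRL1 rose by 1.71 ± 0.20. RSL1, the closest relative of RHD6, had 1 count over all 9 libraries together, and RSL3 had 0.

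Epidermal patterning genes went in both directions, with 1 of 9 tested rising and 4 falling, beside 23.6% and 22.1% of all tested genes, and a median of -0.74. WER, a MYB factor of the cells that form no hair, rose by 2.88 ± 0.66 and passed the filter through number 3 alone. GL2, which represses hair fate and also acts in leaf trichomes, fell by 1.28 ± 0.14, from 384 to 822 CPM outside number 3 to 224 to 263 CPM in it. GL2 overlaps AT1G79850 on the other strand, so its level cannot be assigned to it alone. The same limit holds for ETC1, EXT3, SHV3, PRX44, PRX73, RBOHB, RBOHG, PRP4, PYK10, CASP1 and CASP5, which also overlap a gene on the other strand. On the same strand, GL2 overlaps the long noncoding RNA gene AT1G09927 and COBL5 overlaps AT5G60960. TRY, a single-repeat MYB that inhibits trichomes and favours hairs, fell by 2.38 ± 0.50, its relative ETC1 by 1.03 ± 0.38 and the receptor-like kinase gene SCM by 0.74 ± 0.19. GL2 and TRY are also 2 of the 3 listed trichome markers.

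**Figure D4:**
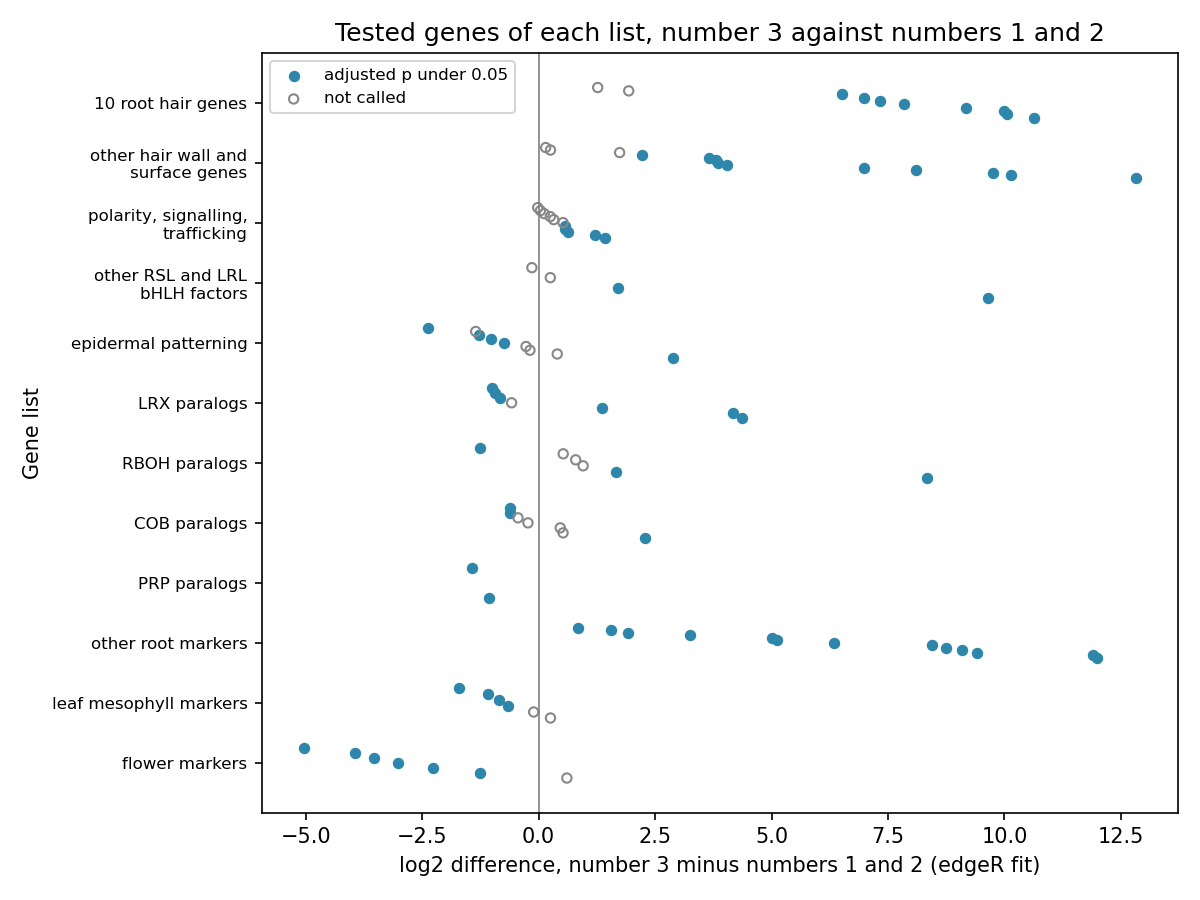
Fitted log2 difference of number 3 against numbers 1 and 2 (x axis) for each tested gene of 12 lists, with filled points for an edgeR adjusted p under 0.05. The root hair genes, other hair wall genes and other root markers lie at or right of 0, and leaf and flower markers lie mostly to the left. Fitted values of genes at 0 in numbers 1 and 2 depend on the prior count.

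Close relatives of the hair genes did not share one direction. Of 9 LRX paralogs, 7 were tested, 3 rose and 3 fell, again beside 23.6% and 22.1% of all tested genes. LRX6 rose by 4.36 ± 0.37, LRX10 by 4.16 ± 0.19, from 6.82 to 21.9 CPM outside number 3 to 147 to 244 CPM in it, and LRX3 by 1.37 ± 0.16. LRX5 fell by 0.99 ± 0.18, LRX4 by 0.93 ± 0.31 and LRX9 by 0.83 ± 0.25. LRX10 is known from pollen. Of 11 listed pollen tube genes, LRX10 among them, 6 were tested, 1 rose (LRX10) and 4 fell. VGD1, VGDH1 and PPME1 had 0, 1 and 0 counts in number 3. LRX11, which did not pass the filter, had a mean of 0.463 CPM in number 3 and 0.164 CPM elsewhere. The source of the LRX10 transcripts was not tested. Of 6 tested RBOH genes, the relatives of RHD2, RBOHG was at 0 outside number 3 and at least 14.0-fold higher in it. RBOHG passed the filter on low counts through number 3 alone and had to differ. RBOHB rose by 1.67 ± 0.54, RBOHD fell by 1.26 ± 0.26, and RBOHF was not called (0.53 ± 0.25). Of 7 tested relatives of COBL9, COBL2 rose by 2.28 ± 0.28, COB fell by 0.61 ± 0.15 and COBL7 by 0.61 ± 0.20, and COBL5 was not called (0.52 ± 0.27). The relatives of PRP1 and PRP3 fell, PRP4 by 1.43 ± 0.14 and PRP2 by 1.07 ± 0.17. PRP4 was far more abundant than PRP3, running at 419 to 533 CPM in number 3, and elsewhere it ran at 981 to 1738 CPM. In the 3 genotype contrasts, with or without the block, edgeR called 0 genes of any of these lists.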

How the data were processed

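The authors deposited unnormalized counts for each gene, 1 library per file, from Lexogen QuantSeq 3' end libraries of 500 ng total RNA per the labels' protocols. Per the submitters' processing notes the authors used Bowtie2 and bedtools with TAIR10. Their versions, the strand setting and the annotation could not be taken from these sources. The headings of the count columns carry no number for the third library of a genotype, which was taken from the title. Of 33323 identifiers, 32835 matched a RefSeq TAIR10.1 locus tag, which gave symbols, coordinates and sequences. The 0.05 threshold applied to edgeR 4.0.16 in R 4.3.3 (filterByExpr, min.count 10 and min.total.count 15, TMM factors of 0.819 to 1.25, glmQLFit and glmQLFTest), fitted to all 9 libraries with genotype alone, or with genotype and number. DESeq2 1.42.0, limma 3.58.1 (voom), other scalings, no filter, the block and leaving out each library were alternatives. The SE beside an edgeR log2 difference is the absolute difference divided by the square root of the test's F value. It is derived from the test and not fitted. The fits were also run on simulated data in which only genes above a set mean level were changed. Most of the hair genes lay below that level, so that run does not speak to them. Transcript ends were compared with blastn 2.17.0.

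The numbers pair the samples: deviations from the genotype means correlated at 0.585 to 0.849 in 9 pairs of the same number and at -0.736 to 0.271 in 18 other pairs. No library was a duplicate, since the smallest chi-square per degree of freedom was 181. The genes and lists were chosen with earlier results of these data known. Named besides the 10 genes were up to 5 called genes per pathway list with the largest difference by number, paralogs that reached 5 CPM, and the 8 most alike genes by Pearson r of log2 CPM with a prior count of 2. EXT3, PRX73, CSLD3, SHV3, RHS14, RSL1, RSL3 and the markers named were added after their values were seen. Some genes of the polarity list that this rule takes are not reported here.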

Additional observations from a re-analysis of the deposited data

How the results depend on the processing

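No hair gene was called between genotypes in any of the 19 alternatives per contrast, the replicate block included, where 0 of 10 were called in each contrast. The lowest adjusted p of a hair gene in these alternatives was 0.865. The paired fit changed no call of a hair gene. Their medians for atrzf1 against WT ran from -6.14 to 6.80, for pca31 against atrzf1 from -5.27 to 6.34 and for pca31 against WT from -5.97 to 7.75, with the extremes when a number 3 library was left out. In the same order the medians were -0.054, 0.012 and -6.2e-05 by limma-voom. DESeq2 with the block gave -0.19, 0.18 and -0.054. Without number 1 of atrzf1 the median for atrzf1 against WT was -0.015. For number 3 against numbers 1 and 2 the count of hair genes called higher was 8, between 8 and 9 when a library was left out, 7 by DESeq2 and 10 with library totals. EXPA7, EXPA18, COBL9, LRX1, PRP1 and PRP3 were called in each of the 15 alternatives. All of these passed the filter on low counts through number 3 alone and had to differ. Their steady calls, and the counts above, thus add no support. In number 3 the level in atrzf1 was lowest for 10 of 10 genes also under library totals and upper-quartile scaling, which were chosen after seeing the data, as were the marker sum without PYK10 and the ratios without each library. Depth limits RHD6 and RSL4 most, with 84 and 59 counts in all.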

Other observations

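The median log2 difference of 7 flower markers was 2.30 for atrzf1 against WT and 2.57 for pca31 against WT, with 0 called by edgeR in either contrast and 2 at an unadjusted p under 0.05 in each, beside 115 and 190 of 20672 tested genes. With the replicate block the medians were 1.89 and 2.24, again with 0 called, and 5 and 6 of the 7 had an unadjusted p under 0.05, beside 771 and 1745 of all tested genes. Their summed level ran from 7.30 to 64.5 CPM in numbers 1 and 2 and from 12.8 to 19.0 CPM in number 3.

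The iron storage gene FER1 reached 203 to 290 CPM in number 3 against 27.6 to 42.3 CPM elsewhere. The root iron transporter gene IRT1 had a mean of 0.154 CPM in number 3, from 13 counts. In the 6 other libraries its mean was 0.123 CPM, from 20 counts. The root nitrate transporter gene NRT2.1 had 1 count in number 3 and 32 elsewhere, and neither of these 2 listed root markers passed the filter on low counts.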
